A study of Mus musculus with 17 samples.

Results

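The interferon-stimulated genes are host genes whose RNA rises when a cell senses interferon or viral nucleic acid, and their RNA was followed here in mouse cells made to express a dominant-negative chromatin remodeler. The set held 41 genes chosen by symbol, among them the interferon transcription factors, the IFIT and OAS families, RNA sensors, GTPases and other antiviral effectors. Of these, 37 were measured, out of 19938 genes with a probe set of their own; where a gene had several probe sets, the one with the highest mean signal was used. Isg15, Gbp2 and Igtp lay only on probe sets that carry several gene symbols, and Ifi44 was named on no probe set in the annotation used, so these 4 genes were not analysed here.

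Total RNA of 17 samples went onto Affymetrix Mouse Gene 1.0 ST arrays, and the cells were 3134 mouse mammary epithelial cells that carry a tetracycline transactivator system. In this system tetracycline keeps the transactivator off, and withdrawing the drug turns it on. All cells were plated in charcoal-treated serum for 48 h, either with tetracycline (repressed) or without it (induced). The control line contains the transactivator alone, so its induced arrays report the transactivator without any remodeler mutant, and it gave 2 repressed and 3 induced arrays. The other 3 lines additionally contain a stably integrated, Flag-tagged dominant-negative form of Brg1 (dnBrg1), Chd4 (dnChd4) or Snf2h (dnSnf2h), and each gave 2 repressed and 2 induced arrays. Brg1, Chd4 and Snf2h are the motor ATPases of SWI/SNF, NuRD and ISWI complexes, which slide, evict or space nucleosomes. Every induced group therefore differs from its repressed group by drug withdrawal and transactivator as well as by the mutant protein. The labels do not say whether a line is 1 clone or a pool, or whether replicates came from separate cultures, so each p-value reflects the spread among these arrays only, and that spread may be technical.

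Type I interferons act through the receptor chains Ifnar1 and Ifnar2 and the kinases Jak1 and Tyk2, whose substrates include Stat2. Stat2 and Irf9 are subunits of ISGF3, the factor that binds the interferon-stimulated response element (ISRE) in the promoters of many members. The gamma-activated sequence (GAS) is the element known from the response to interferon-gamma. Cells that meet no virus still transcribe many of these genes at a low, tonic level. The series compares the effects of the 3 remodeler mutants across the genome, and the comparisons are read here for this gene set.

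The upstream sequences of 6 members are shown, chosen after their values were seen. They are the members that both hold a match to the ISRE core and were called in at least 1 comparison among the dominant-negative lines. Gbp3, Stat2 and Ifit3 were called higher on induction of dnSnf2h and of no other dominant-negative line, while Stat2, Gbp3, Ifit1, Irgm1 and Bst2 were called between repressed dnBrg1 arrays and those of another dominant-negative line. Members called in the dnSnf2h induction whose windows held no ISRE match, such as Irf7, Irf9, Adar and Oasl2, are not shown. RefSeq sequence of build GRCm38.p6 held the 250 bases before the annotated start for 27 of the 37 measured members, in 33 windows, and none for Usp18, Parp9, Parp14, Oas2, Dhx58, Zbp1, Mx1, Mx2, Rtp4 and Ifi27. Each line gives those bases 5′ to 3′ on the strand of the gene, with matches to the ISRE core GAAANNGAAA, on either strand, in capitals.
Gbp3, chr3:142559794-142560043, plus strand: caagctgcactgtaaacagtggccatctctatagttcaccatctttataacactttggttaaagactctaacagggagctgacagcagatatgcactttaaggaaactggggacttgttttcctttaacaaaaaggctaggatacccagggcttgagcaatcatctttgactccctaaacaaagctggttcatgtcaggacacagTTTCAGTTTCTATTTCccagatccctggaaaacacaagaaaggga
Stat2, chr10:128270248-128270497, plus strand: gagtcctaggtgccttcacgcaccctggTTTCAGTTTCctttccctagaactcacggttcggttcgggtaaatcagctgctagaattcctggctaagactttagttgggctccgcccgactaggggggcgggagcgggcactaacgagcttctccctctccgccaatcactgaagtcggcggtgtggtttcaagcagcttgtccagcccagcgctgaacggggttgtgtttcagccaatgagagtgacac
Ifit3, chr19:34583279-34583528, plus strand: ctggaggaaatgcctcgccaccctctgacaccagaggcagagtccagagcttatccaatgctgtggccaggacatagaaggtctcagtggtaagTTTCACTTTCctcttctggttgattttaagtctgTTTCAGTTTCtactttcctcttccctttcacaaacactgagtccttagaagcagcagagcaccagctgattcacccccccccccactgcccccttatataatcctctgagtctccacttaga
Ifit1, chr19:34640639-34640888, plus strand: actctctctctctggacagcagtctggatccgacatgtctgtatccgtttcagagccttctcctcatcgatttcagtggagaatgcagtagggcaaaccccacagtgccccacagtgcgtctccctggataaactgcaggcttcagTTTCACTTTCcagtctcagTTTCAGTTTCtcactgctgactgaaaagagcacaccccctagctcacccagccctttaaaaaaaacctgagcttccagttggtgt
Irgm1, chr11:48871421-48871670, minus strand: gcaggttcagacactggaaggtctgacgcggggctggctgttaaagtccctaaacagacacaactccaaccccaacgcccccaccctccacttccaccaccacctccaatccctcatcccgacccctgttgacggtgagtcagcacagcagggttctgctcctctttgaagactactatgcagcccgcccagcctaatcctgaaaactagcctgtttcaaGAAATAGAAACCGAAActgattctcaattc
Bst2, chr8:71537473-71537722, minus strand: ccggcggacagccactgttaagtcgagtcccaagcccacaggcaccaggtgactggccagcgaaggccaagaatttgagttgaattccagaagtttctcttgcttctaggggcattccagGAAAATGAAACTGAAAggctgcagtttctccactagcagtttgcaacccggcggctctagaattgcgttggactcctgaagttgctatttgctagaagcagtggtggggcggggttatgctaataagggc

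In the Gbp3 window shown, 2 overlapping ISRE matches sit from base -45 to base -30 relative to the start; the second window listed for Gbp3, chr3:142560106-142560355, held none. Irgm1 held 2 overlapping matches from -30 to -15. Bst2 also held 2 overlapping matches, from -130 to -115, preceded by a GAS core match (TTCNNNGAA, either strand) from -136 to -128 that shares bases with the first of them. The Ifit1 and Ifit3 windows held 2 separate matches each, and Stat2 held 1, at -222 to -213. An ISRE core was found in 9 of the 27 members with an entry (Stat2, Ifit1, Ifit3, Oas1a, Oas3, Gbp3, Irgm1, Rsad2 and Bst2), against 936 of 27025 genes in the table (3.46%). A GAS core was found in 5 members (Irf1, Ifit2, Oas1a, Eif2ak2 and Bst2), against 8.13% of all genes. These are matches of letters in a fixed window and do not show that a factor was bound.

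**Figure D1:**
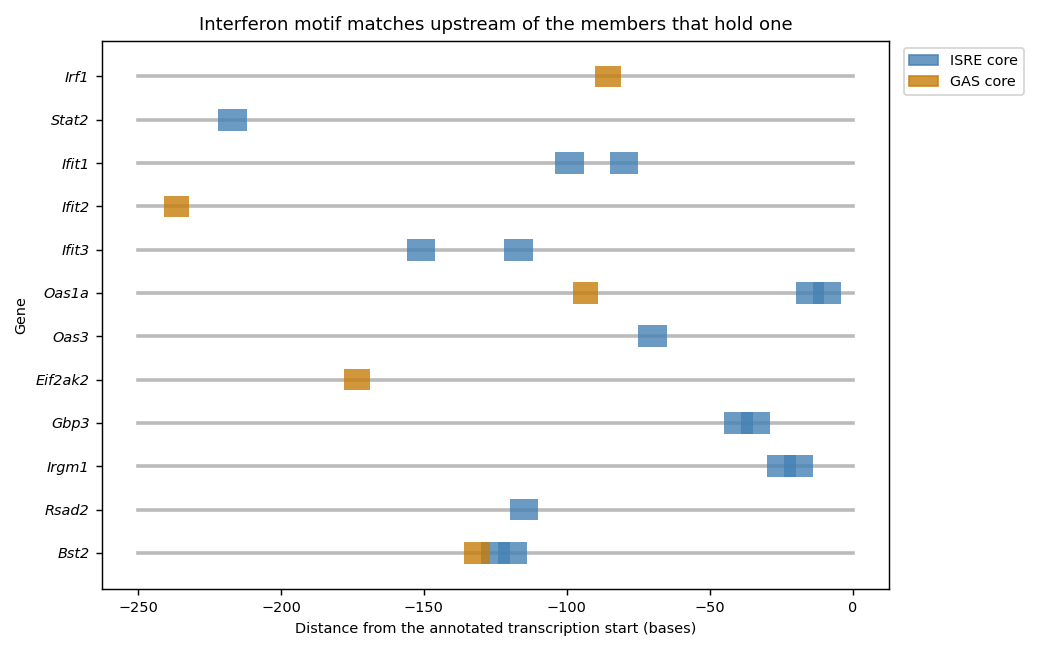
Position of motif matches in the 250 bases before the annotated start of the 12 members that hold at least 1 match; the horizontal axis is the distance from the start in bases, grey lines are the windows, blue blocks the ISRE core and orange blocks the GAS core. The Gbp3, Irgm1 and Oas1a matches to the ISRE core lie within 45 bases of the start, while that of Stat2 begins at base -222.

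Before the results, 2 control libraries have to be set apart, because they go against their labels. Across the 19938 genes, the difference between the libraries labelled control repressed replicate 1 and replicate 2 correlated with the average induction in the 3 dominant-negative lines at r = 0.798, and the differences of control induced replicate 1 from replicates 2 and 3 correlated with it at -0.815 and -0.817. The same measure lay between -0.0406 and 0.185 for the replicate pairs of the other lines; genes are not independent replicates, and no p is given. Interferon-stimulated genes showed the same split: Ddx58 read 8.47 in the library labelled control repressed replicate 1 and 6.91 in replicate 2, and 7.07, 8.42 and 8.38 in the libraries labelled control induced. The comparisons among dominant-negative lines were therefore fitted on the 12 arrays of those lines, and results that need the control line are given with all 17 arrays and with the 15 that leave out both replicates 1. The deposited values are log2 signals, with array medians between 5.48 and 5.63. Of the targeted genes, Chd4 rose in the induced dnChd4 line by 1.82 (SE 0.114, limma adjusted p = 1.43e-07), while Smarca4, which encodes Brg1, stood at 0.12 (SE 0.113, limma adjusted p = 0.615) in dnBrg1 and Smarca5, which encodes Snf2h, at -0.24 (SE 0.118, limma adjusted p = 0.209) in dnSnf2h. The labels do not say which part or species of each cDNA was used, so the probe sets need not read the transgenes.

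No interferon treatment is named in the labels, and the members were read in cells at rest. Their mean signals over the 17 arrays ran from 3.50 to 10.2 on the log2 scale. Among them, 8 averaged under 4.77, the level that bounds the dimmest 30% of genes: the RNA helicase genes Ifih1 and Dhx58, the nucleic acid sensor gene Zbp1, the GTPase genes Mx1 and Mx2, the nucleotide kinase gene Cmpk2, Ifit3 and Oas3. Signal depends on the probes as well as on the RNA, so no order between genes is drawn from it. In whole-culture RNA, fewer cells of a type and less RNA per cell cannot be told apart.

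Withdrawing tetracycline raised a larger number of these genes in the dnSnf2h line than it did in the dnBrg1 or dnChd4 line, although counts alone do not test that difference. In dnSnf2h, 13 of 37 members rose and 0 fell at a limma adjusted p under 0.05, where 9.20% of all genes rose and 8.34% fell. Changes are log2 differences of group means, induced minus repressed, with limma's standard error (SE) and 2 arrays a group. The median change of the members was 0.24 on the log2 scale, against -0.01 over all genes. For dnChd4, 7 members rose and 1 fell, where 11.2% of all genes rose and 6.82% fell, with a median of 0.03 against -0.03. The dnBrg1 line had 4 risen and 2 fallen members, where 8.01% of all genes rose and 6.22% fell, with a median of -0.09 against -0.03. The dnBrg1 counts thus lay near the background, and nothing particular to the set is read from them.

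Across the 3 lines, 3 members rose each time: Irf7, Eif2ak2 and Ifi27, where 4.62% of all genes did so. Another 6 passed the test for a rise in dnSnf2h and were called in neither other line (Stat2, Ifit3, Oasl2, Adar, Gbp3 and Xaf1), where 1.62% of all genes did so. Of those 6, Gbp3 was the only one whose induction also passed the test of a difference from another line, dnBrg1. A further 2, Rtp4 and Samd9l, were called in opposite directions in different lines. Every induced array lay above every repressed array of the same line for 20 of the 37 members in dnSnf2h, 15 in dnChd4 and 12 in dnBrg1, where 22.3%, 27.2% and 23.6% of all genes did so. The reverse, every induced array below every repressed one, held for 3, 8 and 16 members, against 24.1%, 32.9% and 29.9% of all genes.

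These calls depend on keeping the 2 control libraries that go against their labels out of the error estimate. The fit of 15 arrays, which leaves out those libraries and keeps the rest of the control line, retained nearly all of them. In a fit of all 17 arrays, 0 members passed in any of the 3 inductions, and over all genes 68 passed in dnBrg1 (0.341%), 19 in dnChd4 (0.0953%) and 1 in dnSnf2h (0.00502%). The fold changes are the same in all these fits, since they come from the same group means. Single arrays also mattered: without dnBrg1 induced replicate 2 the dnBrg1 count went from 6 to 2, and without dnBrg1 repressed replicate 1 to 3. Leaving out dnChd4 repressed replicate 2 or dnChd4 induced replicate 1 took the dnChd4 count from 8 to 4, and leaving out dnChd4 induced replicate 2 took it to 5. The dnSnf2h count stayed between 11 and 14 whichever of the 12 arrays was left out. Centring each array on its median turned the dnBrg1 split into 5 risen and 1 fallen, and quantile normalization turned that of dnChd4 into 5 risen and 0 fallen. The shares of all genes called in fits with an array left out or rescaled values are not given here or below. These shifts in counts, and the steadier dnSnf2h count, are therefore not read as particular to the members.

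**Figure D2:**
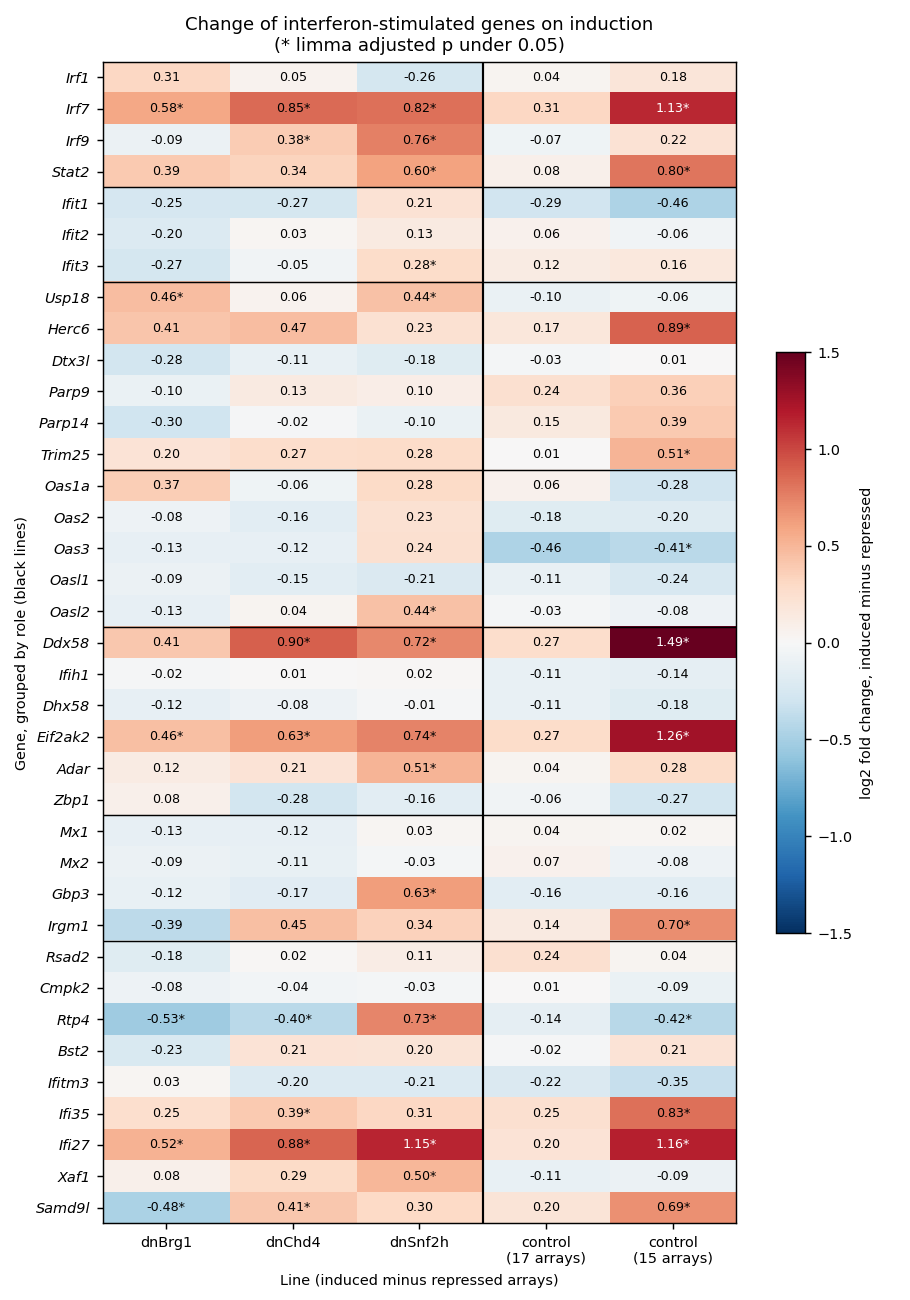
Log2 fold change of the 37 measured members (rows, grouped by role with black lines between groups) on induction in each line (columns), from red for higher to blue for lower in the induced arrays; stars mark a limma adjusted p under 0.05. The dnSnf2h column holds 13 starred rises and no starred fall, and the control column is given with all 17 arrays, where no member passed, and with 15, where 12 did.

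Among the transcription factors, Irf7, which drives the second wave of type I interferon transcription, rose in every dominant-negative line. Its signal was 5.24 and 5.42 in the repressed and 5.92 and 5.91 in the induced dnBrg1 arrays, 5.28 and 5.43 against 6.33 and 6.07 in dnChd4 arrays, and 5.92 and 5.75 against 6.80 and 6.52 in dnSnf2h arrays. In none of the lines did the induced and repressed arrays overlap. The rise came to 1.50-fold in dnBrg1, or 0.58 (SE 0.123, limma adjusted p = 0.00477) on the log2 scale. It was 1.80-fold in dnChd4, 0.85 (SE 0.123, limma adjusted p = 0.000211), and 1.77-fold in dnSnf2h, 0.82 (SE 0.123, limma adjusted p = 0.000295). The dnBrg1 call was lost without dnBrg1 repressed replicate 1. Irf9, the DNA-binding subunit of ISGF3, behaved differently. It gave 6.37 and 6.12 in the repressed and 6.26 and 6.05 in the induced dnBrg1 arrays, 6.20 and 6.19 against 6.61 and 6.55 in dnChd4 arrays, and 6.37 and 6.51 against 7.12 and 7.28 in dnSnf2h arrays. Its induced arrays stood clear of the repressed ones in dnChd4 and dnSnf2h and overlapped them in dnBrg1. Irf9 rose 1.69-fold in dnSnf2h, 0.76 (SE 0.111, limma adjusted p = 0.000266), and less in dnChd4, 0.38 (SE 0.111, limma adjusted p = 0.0257), whereas the dnBrg1 value was -0.09 (SE 0.111, limma adjusted p = 0.695). The dnChd4 call was lost when any of the 4 dnChd4 arrays was left out.

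Stat2, also a subunit of ISGF3, gave 7.23 and 6.99 in the repressed and 7.53 and 7.48 in the induced dnBrg1 arrays, 6.63 and 6.33 against 6.84 and 6.79 in dnChd4 arrays, and 6.43 and 6.46 against 6.87 and 7.21 in dnSnf2h arrays. All 3 lines showed higher induced arrays without overlap. Only the dnSnf2h rise passed the test, at 0.60 (SE 0.127, limma adjusted p = 0.00386), with 0.39 (SE 0.127, limma adjusted p = 0.0508) in dnBrg1 and 0.34 (SE 0.127, limma adjusted p = 0.0848) in dnChd4, and it was lost without dnSnf2h induced replicate 2. The difference between lines did not pass for Stat2, so the calls do not show that the lines differ. Irf1, which binds the same kind of element, was not called in any induction, with 0.31, 0.05 and -0.26 in the dnBrg1, dnChd4 and dnSnf2h lines.

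The IFIT genes, whose products bind viral RNA and restrain its translation, gave few calls on induction. Ifit1 and Ifit2 were not called in any of the 3 inductions, with Ifit1 at -0.25, -0.27 and 0.21 and Ifit2 at -0.20, 0.03 and 0.13 in dnBrg1, dnChd4 and dnSnf2h. Ifit3, a dim member, gave 4.17 and 4.15 in the repressed and 4.40 and 4.48 in the induced arrays of the dnSnf2h line. Those arrays did not overlap, and Ifit3 rose by 0.28 (SE 0.0886, limma adjusted p = 0.0438). That call was lost when any 1 of 10 of the 12 arrays was left out, so it is marginal.

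Of the regulators of ISG15 and ubiquitin, Usp18 rose in 2 lines. The protein strips ISG15 from its targets and damps the interferon receptor. Usp18 gave 4.92 and 5.04 in the repressed and 5.39 and 5.51 in the induced dnBrg1 arrays, 4.95 and 4.91 against 4.97 and 5.00 in dnChd4 arrays, and 4.89 and 4.96 against 5.21 and 5.52 in dnSnf2h arrays. Induced arrays were above repressed ones without overlap in all 3 lines, though narrowly in dnChd4. The rise was 0.46 (SE 0.109, limma adjusted p = 0.00942) in dnBrg1 and 0.44 (SE 0.109, limma adjusted p = 0.0104) in dnSnf2h. The dnChd4 value was 0.06 (SE 0.109, limma adjusted p = 0.820). The dnBrg1 call was lost without dnBrg1 repressed replicate 1 or induced replicate 2, and the dnSnf2h call without dnSnf2h induced replicate 2. The ligases Herc6 and Trim25, the Dtx3l and Parp9 pair, and Parp14 were not called in any of these inductions.

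In the OAS family, whose enzymes make the oligoadenylates that activate RNase L, 1 of 5 members was called on induction of a dominant-negative line. That call was in dnSnf2h, where 9.20% of all genes rose, and nothing particular to the family is read from it. Calls of Oasl1, Oasl2 and Oas3 between repressed arrays are given below. Oasl2 gave 5.53 and 5.72 in the repressed and 5.50 and 5.49 in the induced dnBrg1 arrays, 5.80 and 5.90 against 5.93 and 5.85 in dnChd4 arrays, and 5.95 and 6.00 against 6.39 and 6.44 in dnSnf2h arrays. Its induced dnSnf2h arrays were the brightest of the 12 and did not overlap the repressed ones. Oasl2 rose by 0.44 (SE 0.0949, limma adjusted p = 0.00452) in dnSnf2h. The values were -0.13 (SE 0.0949, limma adjusted p = 0.475) in dnBrg1 and 0.04 (SE 0.0949, limma adjusted p = 0.859) in dnChd4. Oas1a, Oas2, Oas3 and Oasl1 did not pass in any induction.

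The RNA sensors and RNA effectors held some of the larger changes. Ddx58, which encodes the viral RNA sensor RIG-I, gave 8.72 and 8.47 in the repressed and 9.00 and 9.02 in the induced dnBrg1 arrays, 8.24 and 7.74 against 8.94 and 8.84 in dnChd4 arrays, and 8.23 and 8.46 against 8.93 and 9.19 in dnSnf2h arrays. Induced arrays lay above repressed ones in each line. The rise was 1.86-fold in dnChd4, 0.90 (SE 0.148, limma adjusted p = 0.000589), and 1.64-fold in dnSnf2h, 0.72 (SE 0.148, limma adjusted p = 0.00338). The dnBrg1 value was 0.41 (SE 0.148, limma adjusted p = 0.0865) and did not pass. Eif2ak2, which encodes the kinase PKR that shuts down translation on double-stranded RNA, gave 7.74 and 7.50 in the repressed and 8.06 and 8.08 in the induced dnBrg1 arrays, 7.63 and 7.33 against 8.06 and 8.16 in dnChd4 arrays, and 7.47 and 7.74 against 8.27 and 8.43 in dnSnf2h arrays. All induced arrays exceeded the repressed arrays of their line. Eif2ak2 rose by 0.46 (SE 0.125, limma adjusted p = 0.0225) in dnBrg1, 0.63 (SE 0.125, limma adjusted p = 0.00215) in dnChd4 and 0.74 (SE 0.125, limma adjusted p = 0.000721) in dnSnf2h, and the dnBrg1 call was lost without dnBrg1 repressed replicate 2 or either induced replicate, the dnChd4 call without dnChd4 repressed replicate 2.

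Adar, the gene of the enzyme that edits adenosine in double-stranded RNA, gave 7.88 and 7.70 in the repressed and 7.93 and 7.91 in the induced dnBrg1 arrays, 8.12 and 8.04 against 8.30 and 8.27 in dnChd4 arrays, and 8.06 and 8.11 against 8.57 and 8.63 in dnSnf2h arrays. The induced dnSnf2h arrays were the highest of the 12. Adar rose by 0.51 (SE 0.0930, limma adjusted p = 0.00127) in dnSnf2h, with 0.12 (SE 0.0930, limma adjusted p = 0.475) in dnBrg1 and 0.21 (SE 0.0930, limma adjusted p = 0.163) in dnChd4. The sensor genes Ifih1, Dhx58 and Zbp1 did not pass in any induction.

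Gbp3 stood out among the GTPases. It gave 4.95 and 4.97 in the repressed and 4.92 and 4.77 in the induced dnBrg1 arrays, 5.20 and 5.05 against 4.93 and 4.97 in dnChd4 arrays, and 5.23 and 5.44 against 5.89 and 6.03 in dnSnf2h arrays. Only the dnSnf2h induced arrays exceeded 5.5. Gbp3 rose 1.55-fold in dnSnf2h, 0.63 (SE 0.103, limma adjusted p = 0.000637). It was -0.12 (SE 0.103, limma adjusted p = 0.569) in dnBrg1 and -0.17 (SE 0.103, limma adjusted p = 0.325) in dnChd4. The dnSnf2h rise remained called whichever array was left out. Irgm1, an immunity-related GTPase gene, did not pass in any line, with -0.39 (SE 0.157, limma adjusted p = 0.124) in dnBrg1, 0.45 (SE 0.157, limma adjusted p = 0.0641) in dnChd4 and 0.34 (SE 0.157, limma adjusted p = 0.169) in dnSnf2h.

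The remaining effectors held the clearest opposition between lines. Rtp4, an interferon-induced receptor transporter, gave 5.30 and 5.16 in the repressed and 4.79 and 4.60 in the induced dnBrg1 arrays, 5.30 and 5.33 against 4.73 and 5.10 in dnChd4 arrays, and 5.56 and 5.46 against 6.19 and 6.29 in dnSnf2h arrays. Its signal was lower in the induced arrays of dnBrg1 and dnChd4 and higher in those of dnSnf2h, with no overlap in any line. Rtp4 fell by 0.53 (SE 0.120, limma adjusted p = 0.00748) in dnBrg1 and by 0.40 (SE 0.120, limma adjusted p = 0.0287) in dnChd4. It rose 1.66-fold in dnSnf2h, 0.73 (SE 0.120, limma adjusted p = 0.000646). The fall in dnChd4 was lost when either dnChd4 repressed array or dnChd4 induced replicate 1 was left out, and the fall in dnBrg1 without dnBrg1 repressed replicate 1 or induced replicate 2. Samd9l, a restraint on growth and translation, gave 7.70 and 7.42 in the repressed and 6.99 and 7.18 in the induced dnBrg1 arrays, 7.68 and 7.46 against 8.03 and 7.93 in dnChd4 arrays, and 7.48 and 7.43 against 7.57 and 7.95 in dnSnf2h arrays. It fell by 0.48 (SE 0.135, limma adjusted p = 0.0268) in dnBrg1 and rose by 0.41 (SE 0.135, limma adjusted p = 0.0485) in dnChd4, with 0.30 (SE 0.135, limma adjusted p = 0.151) in dnSnf2h. Both Samd9l calls sit close to the threshold: the dnChd4 rise was lost in 6 of 12 fits that left out an array, and the dnBrg1 fall in 3, those without dnBrg1 repressed replicate 1 or either induced replicate.

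Ifi27, which encodes a small membrane protein, showed the largest rise of the set in dnSnf2h. Its signal was 8.05 and 8.11 in the repressed and 8.61 and 8.59 in the induced dnBrg1 arrays, 8.22 and 8.09 against 8.98 and 9.09 in dnChd4 arrays, and 8.43 and 8.54 against 9.70 and 9.56 in dnSnf2h arrays. Induced and repressed arrays did not overlap in any line. Ifi27 rose 1.43-fold in dnBrg1, 0.52 (SE 0.0962, limma adjusted p = 0.00211), 1.84-fold in dnChd4, 0.88 (SE 0.0962, limma adjusted p = 2.09e-05), and 2.21-fold in dnSnf2h, 1.15 (SE 0.0962, limma adjusted p = 2.85e-06). None of these 3 calls was lost when any 1 array was left out.

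Xaf1, the gene of a binding partner of the apoptosis inhibitor XIAP, gave 5.04 and 5.57 in the repressed and 5.71 and 5.90 in the induced arrays of the dnSnf2h line, which did not overlap. It rose by 0.50 (SE 0.151, limma adjusted p = 0.0339) there, a call lost without dnSnf2h repressed replicate 1 or either induced replicate. Repressed first, Xaf1 read 4.91 and 4.86 against 5.36 and 4.99 in dnChd4 arrays, without overlap. It read 5.18 and 5.23 against 5.34 and 5.23 in dnBrg1 arrays. Neither line was called for Xaf1, and no difference between inductions passed. Ifi35, whose product pairs with Nmi, gave 6.91 and 7.09 in the repressed and 7.46 and 7.32 in the induced arrays of the dnChd4 line and rose by 0.39 (SE 0.113, limma adjusted p = 0.0254), a call lost without dnChd4 repressed replicate 1 or either induced replicate. Repressed first, Ifi35 read 6.88 and 7.10 against 7.23 and 7.24 in dnBrg1 arrays. It read 7.25 and 7.14 against 7.63 and 7.39 in dnSnf2h arrays. Induced arrays were higher without overlap in both, though not called, and no difference between inductions passed. Bst2, Ifitm3, Rsad2 and Cmpk2 were not called in any induction. In all, 17 members were called in no induction, no difference between inductions and no repressed comparison among the dominant-negative lines. Their changes spanned -0.30 to 0.41 in dnBrg1, -0.28 to 0.47 in dnChd4 and -0.26 to 0.28 in dnSnf2h.

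**Figure D3:**
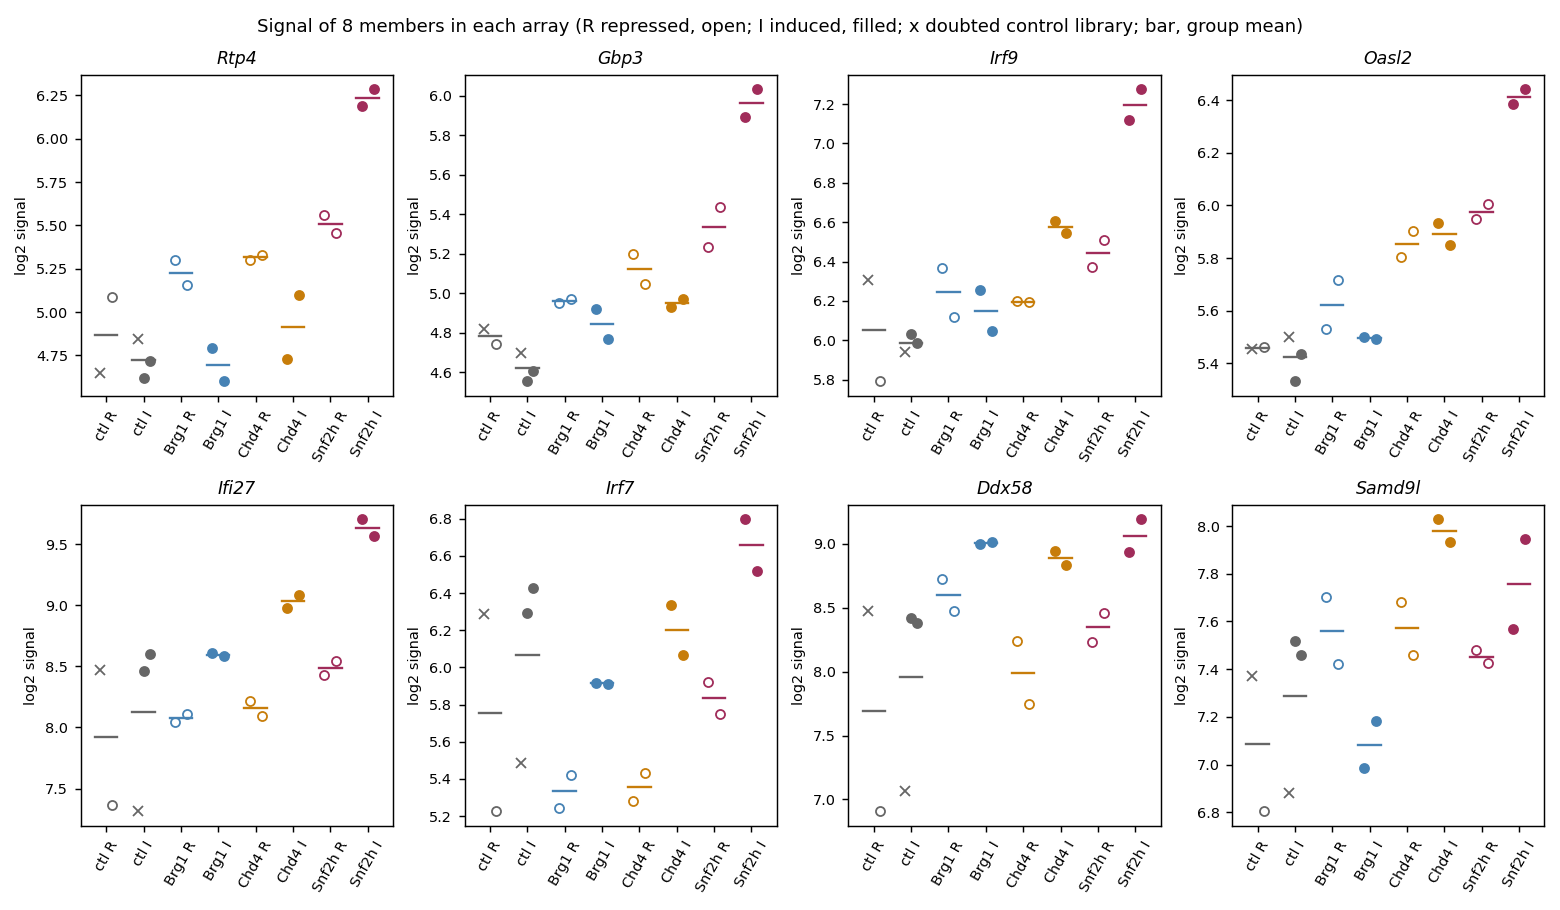
Log2 signal of 8 members in each of the 17 arrays; open circles are repressed and filled circles induced arrays, crosses the 2 control libraries that go against their labels, and bars the group means. Rtp4 and Gbp3 are highest in the 2 induced dnSnf2h arrays, while Ifi27 is higher in the induced arrays of all 3 dominant-negative lines.

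Whether 2 lines responded differently was tested directly, as the difference between their inductions. Between dnBrg1 and dnSnf2h, 3 members differed, with 0.632% of all genes called. Rtp4 differed by -1.26 (SE 0.170, limma adjusted p = 0.00252), dnBrg1 minus dnSnf2h, a call that no left-out array removed. Irf9 differed by -0.85 (SE 0.157, limma adjusted p = 0.0208). Gbp3 differed by -0.74 (SE 0.146, limma adjusted p = 0.0322). The Irf9 difference was lost without dnBrg1 repressed replicate 1, dnBrg1 induced replicate 2 or dnSnf2h induced replicate 2, and that of Gbp3 in 8 of the 12 fits that left out an array. Between dnChd4 and dnSnf2h the test called Rtp4 alone, at -1.13 (SE 0.170, limma adjusted p = 0.00951), with 0.130% of all genes called. That call was lost without either repressed dnChd4 array, dnChd4 induced replicate 1 or dnSnf2h induced replicate 2. Gbp3 differed there by a similar amount, -0.80 (SE 0.146, limma adjusted p = 0.0543), and did not pass.

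Between dnBrg1 and dnChd4 the difference passed for Samd9l, at -0.89 (SE 0.191, limma adjusted p = 0.0343), dnBrg1 minus dnChd4, with 1.27% of all genes called. It was lost in 6 of 12 fits that left out an array. Ddx58 and Irgm1 differed by -0.49 and -0.84 without passing. For all other members the lines were not shown to differ, which is not evidence that they responded alike, since with 2 arrays a group the standard error of such a difference was near 0.157 for Irf9 and 0.210 for Ddx58. In the fit of 17 arrays, 0 members passed in any of the 3 differences, where 0.130% of all genes did for dnBrg1 minus dnChd4, 0.0351% for dnBrg1 minus dnSnf2h and 0.0401% for dnChd4 minus dnSnf2h.

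**Figure D4:**
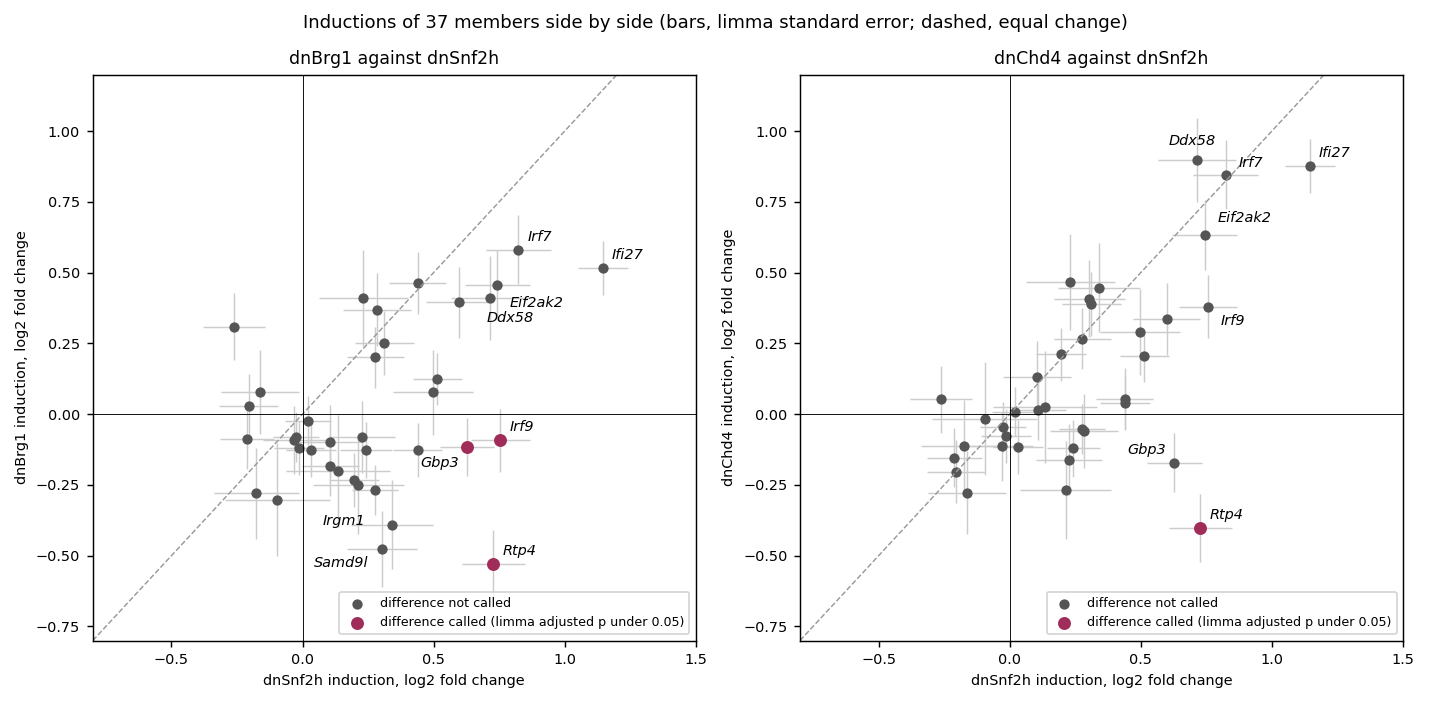
Log2 fold change on induction in dnBrg1 (left) or dnChd4 (right) against that in dnSnf2h for the 37 members; bars are limma standard errors, the dashed line marks equal change, and larger red points mark differences with a limma adjusted p under 0.05. Rtp4 lies below 0 on the vertical axis and above 0 on the horizontal axis in both panels.

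The lines were also compared before induction. Comparing repressed arrays, 6 members differed between dnBrg1 and dnChd4, where 14.4% of all genes did, and 10 differed between dnBrg1 and dnSnf2h, where 14.3% did. The count of 6 lay near the background, and nothing particular to the set is read from it. Both comparisons use the same repressed dnBrg1 arrays. None of the 37 differed between dnChd4 and dnSnf2h, where 0.0150% of genes were called and 9 members had an unadjusted p under 0.05; all 17 arrays together also gave 0 members and 0% of genes. A dependence on 1 array was plain: without dnBrg1 repressed replicate 1 the counts of 6 and 10 went to 2 and 4. Without dnChd4 repressed replicate 2 the 6 went to 3, and without dnSnf2h repressed replicate 2 the 10 went to 5.

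Ifit1 had the largest gap between repressed dominant-negative lines. Its repressed arrays read 4.41 and 4.41 in dnBrg1, 5.59 and 5.38 in dnChd4 and 5.66 and 5.93 in dnSnf2h, and the control libraries labelled repressed read 4.58 and 4.89. The dnBrg1 arrays were the lowest, and their difference from control, -0.33 (SE 0.191, limma adjusted p = 0.269), did not pass, whereas dnSnf2h stood above control by 1.05 (SE 0.191, limma adjusted p = 0.00826). Ifit1 was 2.11-fold lower in dnBrg1 than in dnChd4, -1.07 (SE 0.174, limma adjusted p = 0.000681), and 2.61-fold lower than in dnSnf2h, -1.38 (SE 0.174, limma adjusted p = 9.86e-05). Both gaps stayed called with all 17 arrays, at an adjusted p of 0.00618 and 0.00115, where 4.03% and 3.89% of all genes were called, and no left-out array removed them. The induced arrays kept the order, with 4.14 and 4.19 in dnBrg1, 5.44 and 5.00 in dnChd4 and 5.70 and 6.31 in dnSnf2h. Ifit2, of the same family, read 6.01 and 5.86, 6.79 and 6.24 and 6.44 and 6.89 in the same order of lines, and the dnBrg1 minus dnSnf2h difference was -0.73 (SE 0.197, limma adjusted p = 0.0224).

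Bst2, whose product tetherin holds budding virions at the cell surface, followed the same order. Its repressed signals were 6.74 and 6.75 in dnBrg1, 7.17 and 7.10 in dnChd4 and 7.48 and 7.46 in dnSnf2h, so the lines did not overlap. The dnBrg1 signal differed by -0.39 (SE 0.0944, limma adjusted p = 0.0105) from dnChd4 and by -0.73 (SE 0.0944, limma adjusted p = 0.000131) from dnSnf2h. With 17 arrays the second of these stayed called, at an adjusted p of 0.0250. Oasl1, which restrains Irf7 translation in mice, read 5.80 and 6.03, 6.43 and 6.39 and 6.40 and 6.25, and its dnBrg1 signal differed by -0.50 and -0.41 from the others (limma adjusted p = 0.00456 and 0.0155). Against dnSnf2h, lower signals in dnBrg1 were also called for Irf7 (-0.50), Ifi27 (-0.41), Gbp3 (-0.37), Oasl2 (-0.35) and Adar (-0.29), all log2 differences. Adar was the most marginal, lost in 11 of the 12 fits that left out an array. The Ifit1 calls, Bst2 against dnSnf2h and Stat2 against dnSnf2h were lost in none of these fits, while the other calls of the repressed comparisons, apart from Adar, were lost without dnBrg1 repressed replicate 1.

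A few members ran the other way. Stat2 read 7.23 and 6.99 in repressed dnBrg1 arrays against 6.63 and 6.33 in dnChd4 and 6.43 and 6.46 in dnSnf2h. It was 1.55-fold and 1.59-fold higher in dnBrg1, at 0.63 (SE 0.127, limma adjusted p = 0.00335) and 0.67 (SE 0.127, limma adjusted p = 0.00234). Ddx58 and Irgm1 were also higher in dnBrg1 than in dnChd4, by 0.61 (SE 0.148, limma adjusted p = 0.0116) and 0.58 (SE 0.157, limma adjusted p = 0.0213). Irgm1 read 7.67 and 7.35 in dnBrg1, 7.10 and 6.77 in dnChd4 and 7.15 and 7.58 in dnSnf2h. Each line was made by separate integration, so a difference between repressed lines cannot be told apart from a difference between the cells in which the transgene landed.

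**Figure D5:**
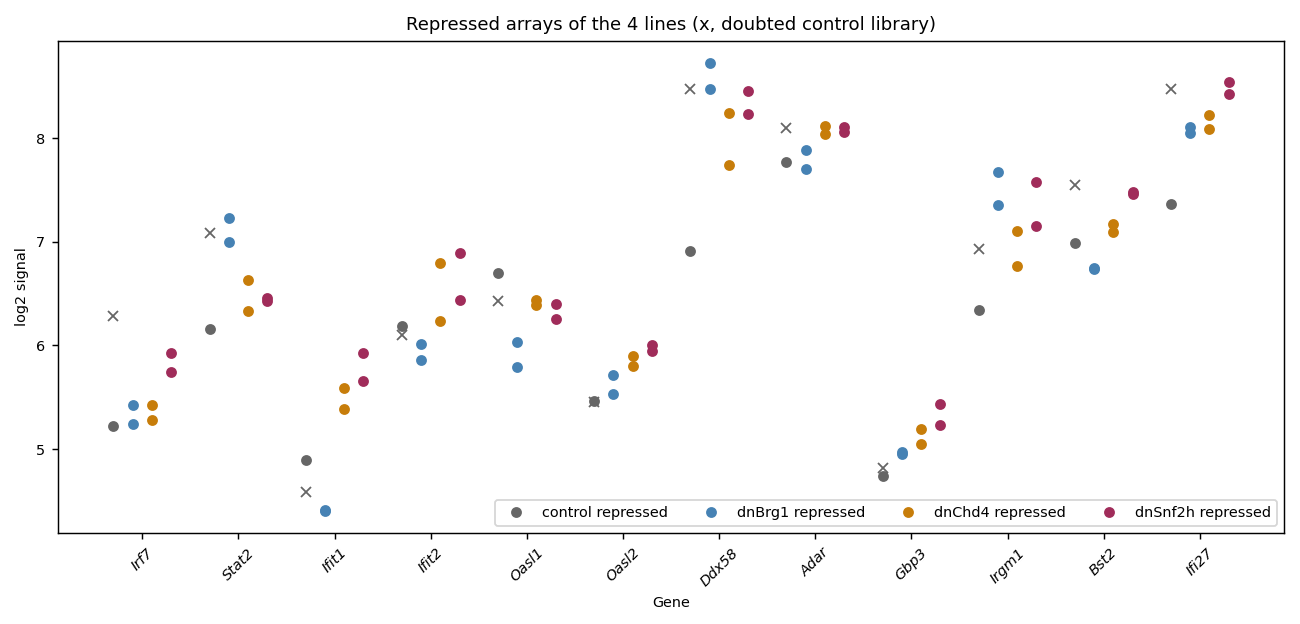
Log2 signal in the repressed arrays of the control line (grey) and the dnBrg1 (blue), dnChd4 (orange) and dnSnf2h (magenta) lines for the members called between repressed dominant-negative lines; the cross is the library labelled control repressed replicate 1. Ifit1, Bst2 and Oasl1 are lowest in dnBrg1, and Stat2 is higher there than in the other dominant-negative lines.

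Set against the repressed control line with all 17 arrays, 4 members were higher and 3 lower in dnBrg1 (16.2% of all genes called), 3 higher and 1 lower in dnChd4 (2.63%), and 9 higher and 1 lower in dnSnf2h (9.35%). These 3 comparisons share the same 2 control libraries, 1 of which goes against its label, so their values are given side by side and no overlap is drawn from them. Parp14, an ADP-ribosyltransferase, read 5.38 and 5.00 in the control libraries, 6.55 and 6.32 in dnBrg1, 6.44 and 5.91 in dnChd4 and 6.31 and 7.01 in dnSnf2h. The differences from control were 1.24 (SE 0.226, limma adjusted p = 0.00309), 0.98 (SE 0.226, limma adjusted p = 0.0413) and 1.47 (SE 0.226, limma adjusted p = 0.00401). Irf1 read 7.42 and 7.19 in the control libraries, 8.03 and 8.04 in dnBrg1, 8.05 and 7.91 in dnChd4 and 8.03 and 8.23 in dnSnf2h. Its differences were 0.73, 0.68 and 0.82 (limma adjusted p = 0.00425, 0.0288 and 0.00634). Oas3, a dim gene, was lower than in control in the 3 lines, with differences of -0.64, -0.57 and -0.68 in the same order.

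In dnSnf2h the genes above control also included Ifit1 (1.05), Dtx3l (0.85), Parp9 (0.57), Oasl2 (0.52), Gbp3 (0.55), Rtp4 (0.64) and Ifitm3 (0.54). Oasl2 (0.40) was also above control in dnChd4. In dnBrg1, Oasl1 (-0.65) and Bst2 (-0.53) were below control, while Irgm1 (0.88) and Rsad2 were above it. The group means of Rsad2 were 5.81 in repressed dnBrg1 and 5.35 in repressed control. Without both doubted control libraries, which leaves a single repressed control array whose spread is assumed to equal that of the other groups, the counts became 13 higher and 3 lower in dnBrg1, 11 and 1 in dnChd4, and 19 and 1 in dnSnf2h (28.7%, 9.74% and 19.5% of all genes). Fitting only the groups compared gave 0 in each. Without dnSnf2h repressed replicate 2 the dnSnf2h count of 10 went to 1, without dnBrg1 repressed replicate 1 the dnBrg1 count of 7 went to 3, and without either repressed dnChd4 array the dnChd4 count of 4 went to 0.

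The control line addresses what drug withdrawal and the transactivator did without a mutant remodeler. With its 5 libraries as labelled, 0 members and 0 of all genes (0%) passed in limma; 1 member, Oas3, had an unadjusted p under 0.05, at -0.46 (SE 0.100, limma adjusted p = 0.941). The control libraries of Irf7 read 6.29 and 5.23 when labelled repressed and 5.49, 6.29 and 6.43 when labelled induced. Those of Ifi27 read 8.47 and 7.37, then 7.31, 8.46 and 8.60. In both genes each replicate 1 fell with the opposite label.

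With 15 arrays, 10 members rose and 2 fell in the control line, where 26.6% of all genes were called. The direction of that result follows from which libraries were left out, and the repressed group then holds 1 array, so it is a description of the remaining libraries. The risen members were Ddx58 (1.49), Eif2ak2 (1.26), Ifi27 (1.16), Irf7 (1.13), Herc6 (0.89), Ifi35 (0.83), Stat2 (0.80), Irgm1 (0.70), Samd9l (0.69) and Trim25 (0.51), as log2 changes. Rtp4 (-0.42) and Oas3 (-0.41) fell. Irf9 (0.22), Adar (0.28), Ifit3 (0.16), Gbp3 (-0.16), Oasl2 (-0.08), Xaf1 (-0.09) and Usp18 (-0.06) were not called. The 3 members that rose in every dominant-negative line, Irf7, Eif2ak2 and Ifi27, are thus among those called in the control line with this choice of libraries.

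Subtracting the control induction from each dominant-negative induction called 0 members with 17 arrays, where 0.0903% of all genes passed for dnBrg1, 0.0401% for dnChd4 and 0% for dnSnf2h. With 15 arrays the dnSnf2h induction exceeded that of control for Rtp4, by 1.14, and Gbp3, by 0.79 (limma adjusted p = 0.00870 and 0.0209, 2.08% of genes called). The dnBrg1 induction was smaller for 5 members, Ddx58 (-1.08), Irgm1 (-1.09), Samd9l (-1.16), Eif2ak2 (-0.80) and Ifi27 (-0.65), with 6.95% of genes called. No member differed for dnChd4, with 0.818% called. All 3 subtract the same control arrays. The 2 libraries left out were picked by how they ran along the dominant-negative inductions, and 1 repressed control array remained. The 15-array differences from control, in either direction, therefore depend on that choice. An effect of the mutants was not tested apart from it, and none is read from these differences.

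Upstream of the members, 9 interferon genes were measured, with means from 2.97 to 6.68, and 5 of them averaged under the 4.77 bound. None was called in dnBrg1 or dnChd4. In dnSnf2h the test called Ifna5, named after its value was seen, which rose by 0.45 (SE 0.134, limma adjusted p = 0.0282) to readings of 6.95 and 6.49 from 6.37 and 6.16. Ifnb1, the interferon most cells make first, lay between 4.13 and 4.62 in all 17 arrays, below the bound of the dimmest 30%. Its log2 values on induction were -0.07, -0.15 and -0.03 in dnBrg1, dnChd4 and dnSnf2h, and none passed. Among 6 receptor genes, 2 rose in dnBrg1, 4 in dnChd4 and 1 in dnSnf2h, where 8.01%, 11.2% and 9.20% of all genes rose. Nothing particular to the interferon or receptor genes is read from the single calls in dnSnf2h. Ifngr2, a chain of the interferon-gamma receptor, rose in all 3 lines, by 0.66, 0.61 and 0.47 (limma adjusted p = 0.000220, 0.000281 and 0.00206). Ifnar1 rose in dnChd4 by 0.30 (SE 0.0930, limma adjusted p = 0.0365), with 0.11 in dnBrg1 and 0.22 in dnSnf2h, and Ifnar2 stood at 0.26, 0.16 and 0.10 without passing. The control libraries of Ifnar1 read 8.62 and 8.25 when labelled repressed and 8.15, 8.82 and 8.74 when labelled induced. Without both replicates 1, control Ifnar1 also read higher when induced.

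Jak1 stood at 0.16, 0.26 and 0.24, Tyk2 at 0.24, 0.05 and -0.03, and Irf3, the factor activated directly by virus sensing, at -0.08, -0.02 and 0.11 in the order dnBrg1, dnChd4, dnSnf2h, and none of these passed. Stat3, which signals for cytokines of the interleukin-6 family, rose in all 3 lines. It gave 8.49 and 8.33 in the repressed and 9.28 and 9.32 in the induced dnBrg1 arrays, 8.45 and 8.10 against 9.46 and 9.44 in dnChd4 arrays, and 8.36 and 8.47 against 9.43 and 9.47 in dnSnf2h arrays. The rises were 0.89 (SE 0.113, limma adjusted p = 0.000110), 1.18 (SE 0.113, limma adjusted p = 6.45e-06) and 1.03 (SE 0.113, limma adjusted p = 2.79e-05). The control libraries of Stat3 read 9.52 and 7.96 when labelled repressed and 7.91, 9.61 and 9.59 when labelled induced, with each replicate 1 again on the side of the opposite label. Without both replicates 1 the control difference was 1.64 for Stat3 and 0.96 for Ifngr2. Those 2 libraries were picked by how they ran along the dominant-negative inductions, and 1 repressed control array remained. The direction of such control differences, here and for the genes below, therefore follows from that choice, and only their sizes are given. On the same choice, the dnBrg1 induction minus that of control was -0.75 for Stat3. Over the whole pathway list, 44 of 49 genes were measured. Of these, 4 rose and 4 fell in dnBrg1, where 8.01% and 6.22% of all genes did. In dnChd4 10 rose and 3 fell, where 11.2% and 6.82% of all genes did. In dnSnf2h 7 rose and 2 fell, where 9.20% and 8.34% of all genes did. The dnBrg1 counts lay near those shares, and nothing particular to the list is read from them.

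Sting1, the adaptor that relays cytosolic DNA sensing by cGAS, moved in opposite directions in the lines. It gave 6.71 and 6.50 in the repressed and 5.52 and 5.64 in the induced dnBrg1 arrays, 8.38 and 8.34 against 9.52 and 9.41 in dnChd4 arrays, and 8.56 and 8.46 against 8.87 and 9.11 in dnSnf2h arrays. The dnBrg1 arrays lay lowest before induction and went lower, while those of the other lines went higher. Sting1 fell by 1.02 (SE 0.109, limma adjusted p = 2.7e-05) in dnBrg1 and rose by 1.10 (SE 0.109, limma adjusted p = 8.39e-06) in dnChd4 and 0.48 (SE 0.109, limma adjusted p = 0.00623) in dnSnf2h. The difference between inductions was -2.13 (SE 0.154, limma adjusted p = 2.11e-06) for dnBrg1 minus dnChd4 and -1.50 (SE 0.154, limma adjusted p = 0.000273) for dnBrg1 minus dnSnf2h. The control libraries of Sting1 read 9.13 and 8.42 when labelled repressed and 8.27, 9.43 and 9.66 when labelled induced. Without both replicates 1 the control difference was 1.13 (limma adjusted p = 1.29e-05), and the dnBrg1 induction differed from it by -2.16 (limma adjusted p = 3.73e-06), while dnChd4 and dnSnf2h differed by -0.03 and -0.65 without passing. In repressed arrays Sting1 was already lower in dnBrg1, with a difference of -1.76 (SE 0.109, limma adjusted p = 1.12e-07) from dnChd4 and -1.91 (SE 0.109, limma adjusted p = 6.25e-08) from dnSnf2h. Ikbke, a kinase that phosphorylates Irf3 and Irf7, gave 7.50 and 7.24 against 7.16 and 7.16 in the dnBrg1 line, 7.16 and 6.93 against 8.11 and 7.82 in the dnChd4 line and 7.02 and 7.36 against 7.42 and 7.57 in the dnSnf2h line, repressed arrays first. It rose by 0.92 (SE 0.138, limma adjusted p = 0.000272) in dnChd4, with 0.89 in control without both replicates 1. The dnBrg1 minus dnChd4 difference was -1.13 (SE 0.195, limma adjusted p = 0.00741).

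Beyond the members, 68 of 78 other interferon-stimulated genes were measured. Of these, 5 rose and 5 fell in dnBrg1, 13 rose and 4 fell in dnChd4, and 6 rose and 7 fell in dnSnf2h, with medians of 0.01, 0.05 and 0.04 on the log2 scale. Over all genes 8.01% rose and 6.22% fell in dnBrg1, 11.2% and 6.82% in dnChd4, and 9.20% and 8.34% in dnSnf2h. The dnBrg1 and dnSnf2h counts lay near these shares, and the dnChd4 count of rises lay above its share. Trim30d, of the Trim30 family, rose in all 3 lines, by 0.92 (SE 0.149, limma adjusted p = 0.000757), 1.21 (SE 0.149, limma adjusted p = 5.46e-05) and 1.49 (SE 0.149, limma adjusted p = 1.26e-05), and as a member of a multigene family it is less certainly told from its relatives. Its control libraries read 6.29 and 3.95 when labelled repressed and 4.73, 5.67 and 5.98 when labelled induced. Without both replicates 1 the control differences were 1.88 for Trim30d, 1.48 for Trim30a and 1.25 for Trim12a, in a direction that follows from that choice of libraries. Trim30a (0.76 and 0.64) and Trim12a (1.10 and 0.66) rose in dnChd4 and dnSnf2h. Mlkl, which executes necroptosis, fell in all 3 lines, by 0.72, 0.66 and 0.49 (limma adjusted p = 0.000597, 0.000762 and 0.00691). The same choice of libraries gave -0.71 in control.

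Tor3a, an interferon-responsive torsin ATPase, was called higher on induction in the dnBrg1 line alone. It gave 8.43 and 8.37 in the repressed and 9.35 and 9.39 in the induced dnBrg1 arrays, 8.73 and 8.72 against 8.81 and 8.77 in dnChd4 arrays, and 8.74 and 8.76 against 8.93 and 8.97 in dnSnf2h arrays. The dnBrg1 rise was 1.96-fold, 0.97 (SE 0.0855, limma adjusted p = 6.17e-06), against 0.06 in dnChd4 and 0.20 in dnSnf2h. Induced arrays lay above repressed ones without overlap in every dominant-negative line. Repressed dnBrg1 arrays differed by -0.33 from those of dnChd4 and by -0.35 from those of dnSnf2h (limma adjusted p = 0.0171 and 0.0120). The inductions differed by 0.91 (SE 0.121, limma adjusted p = 0.000863) from dnChd4 and by 0.77 (SE 0.121, limma adjusted p = 0.00647) from dnSnf2h. Control stood at -0.18 without both replicates 1 and did not pass. Ccl5, a chemokine gene, gave 5.97 and 6.04 in the repressed and 6.08 and 5.84 in the induced dnBrg1 arrays, 6.89 and 7.23 against 6.53 and 6.50 in dnChd4 arrays, and 7.52 and 7.78 against 6.68 and 7.03 in dnSnf2h arrays. It fell in dnChd4 by 0.54 (SE 0.141, limma adjusted p = 0.0134) and in dnSnf2h by 0.80 (SE 0.141, limma adjusted p = 0.00107), and repressed dnBrg1 minus repressed dnSnf2h was -1.65 (SE 0.141, limma adjusted p = 2.6e-06). Shisa5 rose in all 3 lines, by 0.42, 0.71 and 0.51 (limma adjusted p = 0.00428, 5.63e-05 and 0.000858). The galectin gene Lgals9 rose in dnChd4 (0.91) and dnSnf2h (0.41) and stood at 0.22 in dnBrg1. The chromatin reader gene Sp140 was called in dnChd4 (0.76), with 0.46 in dnBrg1 and 0.41 in dnSnf2h, and so was Ifi203 (0.59), with -0.08 and 0.29. The control libraries of Shisa5 read 9.65 and 8.88 when labelled repressed and 8.71, 9.69 and 9.74 when labelled induced. Those of Lgals9 read 9.14 and 8.14, then 8.06, 9.00 and 8.82, and those of Sp140 7.17 and 5.22, then 5.97, 6.80 and 6.83. Those of Ifi203 read 6.79 and 6.31, then 6.43, 6.61 and 6.68. Each replicate 1 again lay on the side of the opposite label. Without both replicates 1, control also read higher when induced.

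Cell type markers were read beside these results. Of 9 measured T, B or NK cell markers 7 were under the 4.77 bound, and the brightest, Cd3e, averaged 5.60; the mean of the list ran from 4.25 to 4.43 over the 8 groups. Of 10 myeloid or plasmacytoid markers 5 were under the bound, the brightest was Cd14 at 5.94, and the list ran from 4.69 to 4.90. In the inductions 0 lymphoid markers were called, and 1 myeloid marker fell in dnBrg1 and 1 in dnSnf2h, where 6.22% and 8.34% of all genes fell. The label calls the cells epithelial. Of 10 epithelial markers 4 were under the bound and the brightest, Krt8, averaged 6.29; of 10 mesenchymal markers 0 were under it and the brightest, Vim, averaged 12.7. These are levels of different probe sets, so they do not decide the identity of the cells. Of the mesenchymal markers, 5 fell in dnBrg1 and 4 in dnSnf2h, above the same 6.22% and 8.34% of all genes. In dnChd4 1 mesenchymal marker rose, near the 11.2% of all genes that rose there. Of the 10 epithelial markers 1 rose in dnSnf2h, near the 9.20% of all genes that rose there, and 0 were called in dnBrg1 or dnChd4. The part of these markers in the results for the interferon-stimulated genes was not tested.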

How the data were processed

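RNA of 17 samples was read on Affymetrix Mouse Gene ST arrays. The deposited values are log2 signals per probe set, from 2.02 to 14.86, made by the authors with Affymetrix Expression Console, per the submitters' processing notes; how they were summarized and normalized, and on which build, is not given in the sources used here. The annotation named 1 gene for 21789 of 35557 probe sets, several for 1621 and none for 12147; the brightest singly named probe set of each gene left 19938 genes. No further scaling was applied. Arrays give no read depth, and their number limits the precision.

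Group means were fitted with R 4.3.3 and limma 3.58.1, using its linear fits, contrasts and empirical Bayes step, with Benjamini-Hochberg adjustment over all 19938 genes and a threshold of 0.05, on the 12 dominant-negative arrays, or on all 17 where control arrays entered. Scripts were tested on simulated data. Alternatives were other array sets, a replicate block, trended and robust eBayes, a filter on dim genes, median centring, quantile normalization and leaving out each array. Replicate numbers were not treated as pairs: same-numbered repressed and induced arrays deviated together with correlations of 0.016, 0.135 and 0.313 in dnBrg1, dnChd4 and dnSnf2h. Members, lists and tests were chosen with earlier results of these data known. Array values are given for every member called in an induction, a difference of inductions or a repressed comparison of the dominant-negative lines; of the pathway and other lists, genes called in an induction with a log2 change of at least 0.58 are named, at most 8 per list and line, besides a few genes named regardless.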

Additional observations from a re-analysis of the deposited data

Results flagged for a closer look

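Differences between 2 inductions that passed their own test are collected here. For dnBrg1 minus dnSnf2h these were Rtp4 at -1.26, Irf9 at -0.85, Gbp3 at -0.74, Sting1 at -1.50 and Tor3a at 0.77 on the log2 scale. For dnBrg1 minus dnChd4 they were Samd9l at -0.89, Sting1 at -2.13, Ikbke at -1.13 and Tor3a at 0.91. For dnChd4 minus dnSnf2h the test found Rtp4 at -1.13. The causes of these differences were not tested.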

How the results depend on the processing

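The 48 calls of single members among the dominant-negative lines kept their direction under every alternative run. Of these, 47 passed without the 2 doubted control libraries, 3 with all 17 arrays, 44 with the replicate block, 48 with trended and robust eBayes, 47 of the 47 still tested without the dimmest 30% of genes, 41 with median centring and 43 with quantile normalization; of 27 induction calls, 22 passed in the line alone. With 17 arrays the counts of called members were 0 in each induction and each difference, 1 between repressed dnBrg1 and dnChd4, and 2 between repressed dnBrg1 and dnSnf2h. The line alone gave 10 in dnBrg1, and quantile normalization gave 5 in dnChd4 and 8 for repressed dnChd4 against control. For the dnBrg1 minus dnChd4 difference, median centring and the replicate block gave 0; for dnBrg1 minus dnSnf2h, median centring gave 1; for dnChd4 minus dnSnf2h, 15 arrays or no dim genes gave 2. Without the doubted libraries, counts were 12 for the control induction, 5 and 2 for dnBrg1 and dnSnf2h minus control, and 16, 12 and 20 for repressed dnBrg1, dnChd4 and dnSnf2h against control, which the groups compared alone took to 0. The replicate block, whose numbers do not pair the samples, left 1 for repressed dnChd4 against control and changed no other count by over 1.5 times apart from the difference named. Leaving out each array in turn gave 2 to 8 members in dnBrg1, 4 to 10 in dnChd4, 11 to 14 in dnSnf2h, 0 to 2 for dnBrg1 minus dnChd4, 1 to 4 for dnBrg1 minus dnSnf2h, 0 to 2 for dnChd4 minus dnSnf2h, 2 to 8, 4 to 10 and 0 to 2 for the repressed pairs dnBrg1 and dnChd4, dnBrg1 and dnSnf2h, and dnChd4 and dnSnf2h, 0 to 0 for the control induction and for dnBrg1 and dnChd4 minus control, 0 to 1 for dnSnf2h minus control, and 3 to 10, 0 to 7 and 1 to 13 for repressed dnBrg1, dnChd4 and dnSnf2h against control. The causes of these shifts were not tested, beyond the wider error that the 2 doubted control libraries bring to the 17-array fit. Dim members have signals near the lower end of the scale, where a fold change is compressed.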
